A study of Rattus norvegicus with 4 samples.

Results

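Schwann cells are the glia of peripheral nerves, and the genes described here are 36 that mark their lineage or build the myelin sheath. They were chosen by name, with earlier results of these data known. Of the 36, 35 had a row among the 17778 gene rows measured, the exception being the connexin gene Gjc3. In RSC96 cells, an established line labelled as rat Schwann cells, 18 of these genes were measured at a mean of 1 FPKM or more (a read level scaled by transcript length and library size), 8 lay below that level and 9 were listed at 0 in every library. The IL-22 group held 2 libraries from cells given 100 ng/ml of rat IL-22 protein, a member of the IL-10 cytokine family, for 48 h. The control group held 2 libraries from cells given only the solvent of the cytokine, 0.1% bovine serum albumin, and the labels give no duration for them. All cells were of generation 4 and had been kept without serum overnight beforehand. Nothing in the labels says that the 2 libraries of a group came from separate cultures, so the spread behind each p-value may be technical rather than that of independent cultures.

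During development the transcription factor SOX10 specifies the Schwann lineage, and SOX2 and PAX3 mark cells that are still immature. Myelination starts when SOX10 and POU3F1 (OCT6) switch on EGR2, which with its NAB corepressors drives the genes of the sheath. Compact myelin is held together by MBP and PMP22, the outer and inner margins carry periaxin and MAG, and CADM4 on the glial membrane binds CADM3 on the axon. After nerve injury Schwann cells shut this programme down and take up SOX2, NGFR, NCAM1 and GFAP again.

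Gene rows summed to between 658909 and 669549 FPKM with IL-22 and between 630119 and 636818 FPKM in controls. The steps between the lowest FPKM placed sequencing depth, relative to control library 1, at 1.08 and 1.09 in the IL-22 libraries and at 1.28 in control library 2. An FPKM of 0 can be a failed estimate, so genes are described as listed at 0 and nothing more. Of 82 ribosomal protein rows, 3 were listed at 0 in some library.

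Sox10, S100b and Ngfr, 3 genes used to define the Schwann lineage, were at or near 0 in this line, against its label. Other genes of the set were above 1 FPKM, among them Pmp22 (mean 30.4 FPKM), Cnp (31.0 FPKM) and Dhh (6.02 FPKM). The identity of the line was not tested. Sox10, which defines the lineage, was listed at 0 in both IL-22 libraries and in control library 1, and at 0.0315 FPKM in control library 2. S100b, which encodes the calcium-binding protein used to stain Schwann cells, was at 0 and 0.0760 FPKM with IL-22 and at 0 in both controls. Ngfr, the gene of the low-affinity neurotrophin receptor, was at 0.110 and 0.0734 FPKM with IL-22 and at 0.119 and 0.0310 FPKM in controls. These 3 genes therefore lay far under 1 FPKM in every library, and none was tested. The 4 other lineage regulators listed were well above it, and their order by mean over the 4 libraries was Sox2 (35.4 FPKM), Tfap2a (29.7 FPKM), Pax3 (17.0 FPKM) and Zeb2 (15.6 FPKM). In the plot of levels by library these 4 stand to the right of the 1 FPKM line and Sox10 to its left.

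**Figure D1:**
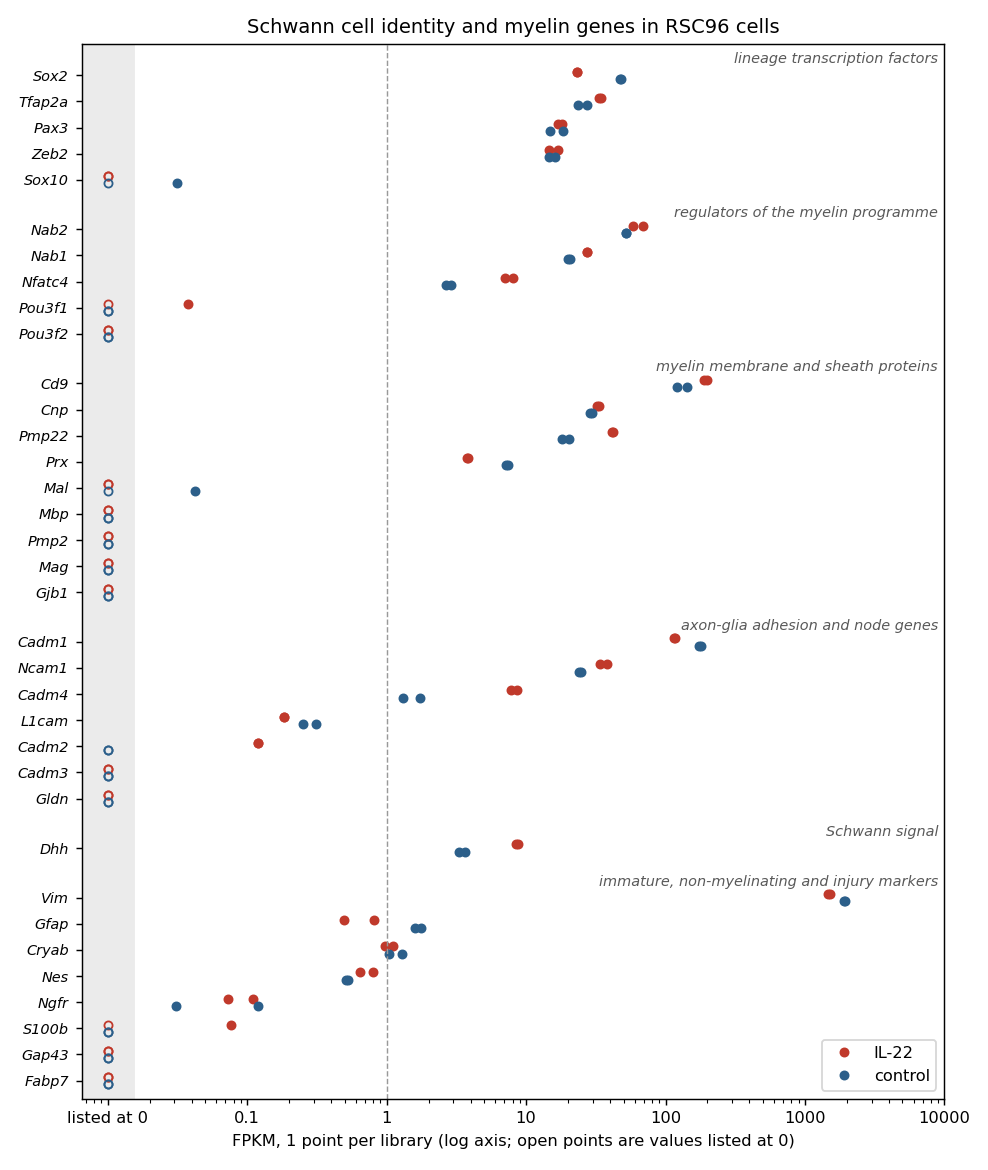
FPKM of the 35 identity and myelin genes with a row, on a log axis, with 1 point per library (red IL-22, blue control), genes grouped by role and open points in the grey band marking values listed at 0. The dashed line marks 1 FPKM, the minimum mean for a test: 18 genes met it, from Cryab (mean 1.10 FPKM) to Vim (mean 1700 FPKM), and Nes (mean 0.622 FPKM) was the nearest below.

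Genes of other cell types were looked at in the same libraries. Of 10 fibroblast genes 6 were at a mean of 1 FPKM or more in each group, led by Thy1 (242 and 241 FPKM with IL-22, 201 and 222 FPKM in controls), while Dcn and Lum were listed at 0 throughout. Their summed FPKM were 473 and 484 with IL-22 and 509 and 490 in controls. Of 6 smooth muscle and pericyte genes 3 reached 1 FPKM in each group. That list summed to 30.3 and 30.5 FPKM with IL-22 and to 51.2 and 55.2 FPKM in controls, a gap held mainly by Tagln (4.54 and 4.28 FPKM with IL-22, 23.3 and 26.4 FPKM in controls), with Rgs5 at 0. None of 8 neuron genes reached 1 FPKM in either group. Of 8 macrophage and leukocyte genes 7 had a row. Of these 1 reached a mean of 1 FPKM with IL-22 and 2 in controls, and Aif1 was at 0. Among 6 melanocyte genes 4 had a row, of which 1 reached that mean with IL-22 and 0 in controls, and Tyr was at 0 throughout. Of 5 endothelial genes 0 did so with IL-22 and 1 in controls. Of 5 oligodendrocyte genes 1 did so in each group, Mog, at 2.75 and 2.83 FPKM with IL-22 and at 2.63 and 2.73 FPKM in controls, while Olig2 was at 0. The part of these lists in the differences given here was not tested.

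IL-22 was set against its solvent across every gene row that averaged 1 FPKM or more, on the log2(FPKM + 1) scale with limma, at a Benjamini-Hochberg adjusted p under 0.05. Of the 18 identity and myelin genes tested, 9 rose and 5 fell with IL-22, while 4 missed the threshold. Among all 9485 rows tested 58.4% passed, 27.6% higher and 30.8% lower. The median difference was 0.22 over the 18 genes and -0.02 over all rows. Groups did not overlap in 15 of the 18 genes, against 80.1% of all rows. Called differences of at least 1 on the log2 scale were found in 5 of the 18, against 7.52% of all rows. No test of the 18 genes as a set was made. In bulk RNA, fewer cells of a kind and less RNA per cell cannot be told apart. Differences given from here on are in log2(FPKM + 1), IL-22 minus control, with limma's standard error, and folds are ratios of the mean FPKM of 2 libraries a group.

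**Figure D2:**
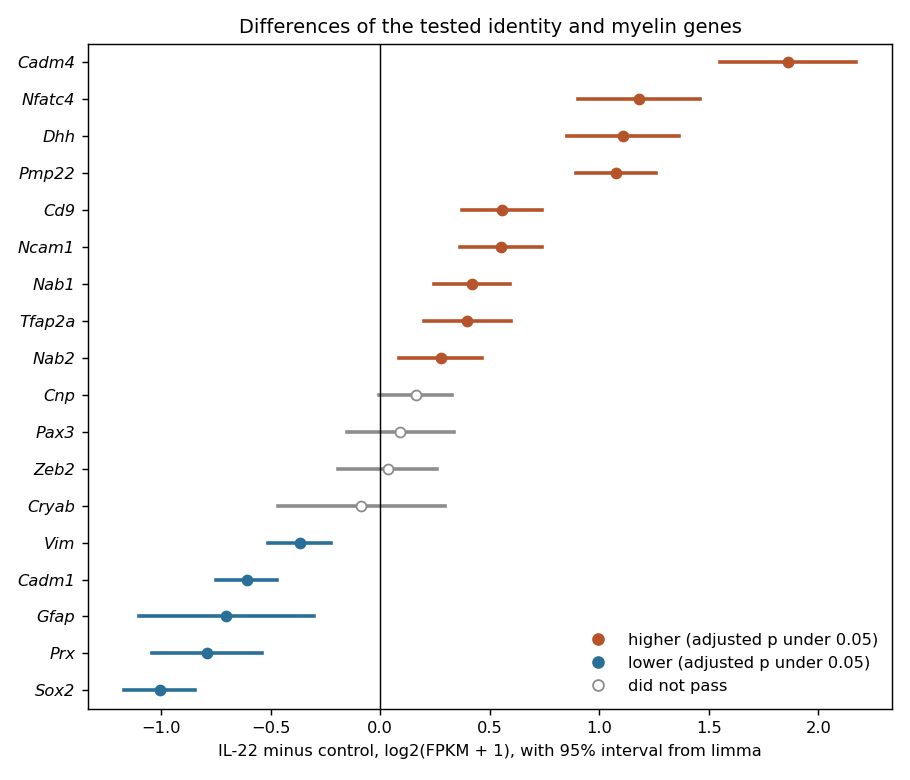
Difference of each of the 18 tested genes in log2(FPKM + 1), IL-22 minus control, with the 95% interval from limma. The genes run from Cadm4 (1.86) at the top to Sox2 (-1.01) at the bottom, and the 4 open points (Cnp, Pax3, Zeb2 and Cryab) did not pass.

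Of 4 lineage factors tested, Sox2 fell, Tfap2a rose and 2 did not pass, where 30.8% of all rows fell and 27.6% rose. Sox2, which holds Schwann cells in an immature, non-myelinating state, was at 23.2 and 23.2 FPKM with IL-22 and at 47.1 and 48.1 FPKM in controls. The 2 IL-22 libraries were nearly equal and lay below both controls by more than the spread within either group. Sox2 thus fell 2.05-fold (-1.01 ± 0.07, limma adjusted p = 5.86e-06). Tfap2a, which encodes the neural crest factor AP-2 alpha of Schwann cell precursors, was at 33.2 and 34.6 FPKM with IL-22 and at 23.6 and 27.4 FPKM in controls. It rose 1.33-fold (0.40 ± 0.09, limma adjusted p = 0.00414). Pax3, a factor of precursor and immature cells, was at 17.1 and 18.0 FPKM with IL-22 and at 14.7 and 18.3 FPKM in controls. Its groups overlapped, and the 95% interval of the difference ran from -0.15 to 0.34 (limma adjusted p = 0.488). Zeb2, a repressor of differentiation inhibitors that Schwann cells need in order to myelinate, was at 16.9 and 14.6 FPKM with IL-22 and at 14.6 and 16.2 FPKM in controls. The groups overlapped there too, with an interval from -0.19 to 0.26 (limma adjusted p = 0.792).

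Of 5 regulators of the myelin programme 3 were tested, and these 3 were higher with IL-22, where 27.6% of all rows rose. Nfatc4, a calcineurin-dependent factor that acts with SOX10 on Egr2, was at 7.10 and 8.04 FPKM with IL-22 and at 2.91 and 2.65 FPKM in controls. It rose 2.73-fold (1.18 ± 0.12, limma adjusted p = 5.39e-05). The corepressors of EGR factors rose less. Nab1 was at 27.4 and 27.3 FPKM with IL-22 and at 19.9 and 20.6 FPKM in controls, a rise of 1.35-fold (0.42 ± 0.08, limma adjusted p = 0.00145). Nab2 was at 58.5 and 68.5 FPKM with IL-22 and at 51.9 and 52.3 FPKM in controls, a rise of 1.22-fold (0.28 ± 0.08, limma adjusted p = 0.019). The IL-22 libraries of Nab2 differed by more than the gap between the lower of them and the controls, and without IL-22 library 2 the adjusted p was 0.228, without control library 1 0.115 and without control library 2 0.104. The POU factors that start myelination lay under the minimum for a test. Pou3f1 was at 0 and 0.0378 FPKM with IL-22 and at 0 in both controls, and Pou3f2 was listed at 0 in all 4 libraries.

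Of 9 sheath genes with a row, 4 were tested, 4 were listed at 0 in all libraries and 1, Mal, was at 0 with IL-22 and at 0 and 0.0420 FPKM in controls. Pmp22, whose tetraspan protein sits in compact myelin, was at 41.0 and 42.3 FPKM with IL-22 and at 18.2 and 20.2 FPKM in controls. It rose 2.17-fold (1.08 ± 0.08, limma adjusted p = 8.19e-06), and its groups were far apart. Cd9, a tetraspanin of the myelin and of many other membranes, was at 197 and 189 FPKM with IL-22 and at 142 and 121 FPKM in controls, and rose 1.47-fold (0.56 ± 0.08, limma adjusted p = 0.000395). Prx, the gene of periaxin, which anchors the outer Schwann cell membrane to the dystroglycan complex, went the other way. It was at 3.81 and 3.78 FPKM with IL-22 and at 7.39 and 7.22 FPKM in controls, and fell 1.92-fold (-0.79 ± 0.11, limma adjusted p = 0.000309). Cnp, which encodes an enzyme of non-compact myelin, was at 32.1 and 33.6 FPKM with IL-22 and at 29.7 and 28.8 FPKM in controls. The groups did not overlap, but the gene did not pass (0.16, interval from -0.01 to 0.33, limma adjusted p = 0.0878). With quantile normalization it did (adjusted p = 0.0269). The 4 genes listed at 0 throughout were Mbp and Pmp2, which encode proteins of compact myelin, Mag, an adhesion molecule of the inner margin, and Gjb1, the connexin of the paranodes and incisures.

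Of the 4 genes of the CADM family of adhesion molecules 2 were tested, and Cadm4 rose while Cadm1 fell. Cadm4, the Schwann cell partner of the axonal CADM3, was at 8.55 and 7.81 FPKM with IL-22 and at 1.32 and 1.75 FPKM in controls. Both IL-22 values lay far above both control values, and the rise of 5.33-fold in the means was the largest among the 18 tested genes (1.86 ± 0.14, limma adjusted p = 7.4e-06). Cadm1 was at 117 and 115 FPKM with IL-22 and at 175 and 181 FPKM in controls, and fell 1.53-fold (-0.61 ± 0.06, limma adjusted p = 4.25e-05). Cadm2 was at 0.119 and 0.119 FPKM with IL-22 and at 0 in both controls, too low for a test, and Cadm3 was listed at 0 in every library. Cadm1 was by far the most abundant of the family. Its share of the summed FPKM of the 4 genes was 93.1% and 93.6% with IL-22 and 99.3% and 99.0% in controls, and that of Cadm4 was 6.80% and 6.33% with IL-22 and 0.748% and 0.959% in controls.

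**Figure D3:**
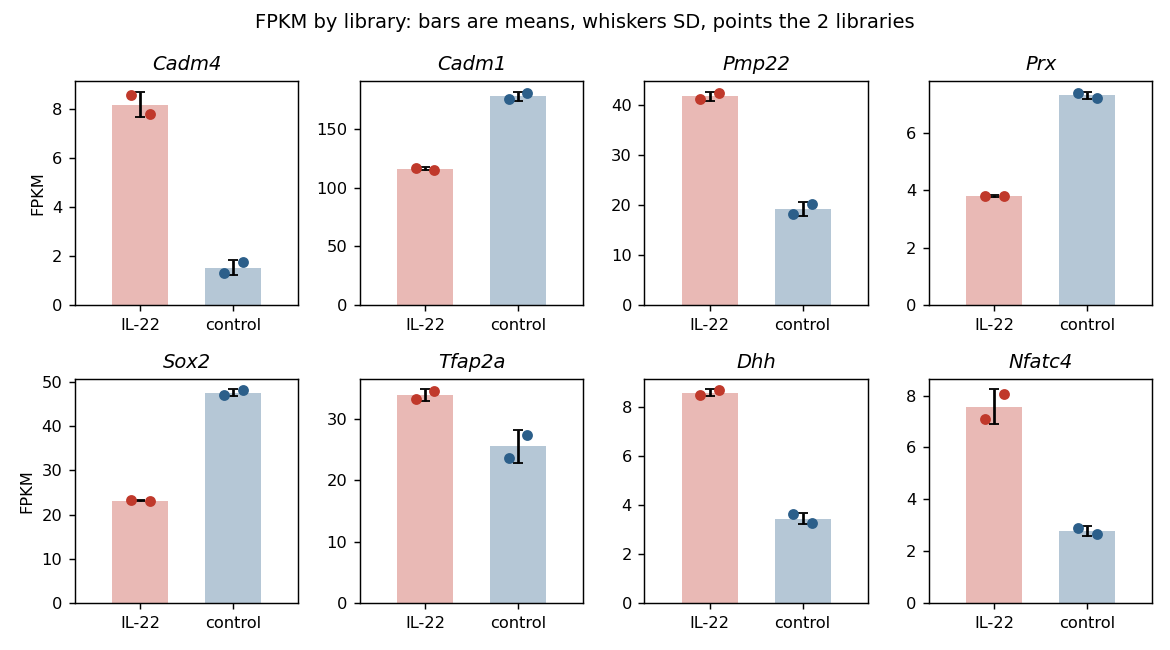
FPKM of 8 genes in the IL-22 group (left, red) and the control group (right, blue), with bars at the mean, whiskers for the SD and a point for each of the 2 libraries. Cadm4 and Cadm1 moved in opposite directions, as did Pmp22 and Prx, and Tfap2a and Sox2. All 8 were picked from genes that passed the threshold. Their groups did not overlap, as was so for 80.1% of all rows tested.

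Other adhesion genes and the one secreted signal in the set were these. Ncam1, the neural cell adhesion molecule of immature and non-myelinating Schwann cells, was at 34.1 and 38.3 FPKM with IL-22 and at 23.9 and 24.9 FPKM in controls. It rose 1.49-fold (0.55 ± 0.08, limma adjusted p = 0.000472). L1cam, the gene of another adhesion molecule of non-myelinating cells, was at 0.185 and 0.184 FPKM with IL-22 and at 0.250 and 0.312 FPKM in controls, under the minimum for a test. Gldn, whose product gliomedin gathers sodium channels at nodes, was listed at 0 in all 4 libraries. Dhh, which encodes Desert hedgehog, the Schwann cell signal that organises the perineurium, was at 8.50 and 8.69 FPKM with IL-22 and at 3.62 and 3.28 FPKM in controls. It rose 2.49-fold (1.11 ± 0.11, limma adjusted p = 4.71e-05), with little spread within either group.

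Of 8 genes grouped as immature, non-myelinating and injury markers 3 were tested, of which 2 fell with IL-22 and 0 rose, where 30.8% of all rows fell and 27.6% rose. These counts depend on the grouping. Ncam1 and Sox2, also taken up again after injury, were counted in other groups, and Ncam1 rose (0.55) while Sox2 fell (-1.01). Vim, the intermediate filament gene of mesenchymal and immature glial cells, was the most abundant of all 35 genes and lay at the 99.5th percentile of expressed genes by mean FPKM. It was at 1455 and 1514 FPKM with IL-22 and at 1895 and 1937 FPKM in controls, and fell 1.29-fold (-0.37 ± 0.06, limma adjusted p = 0.00108). Gfap, the filament gene of non-myelinating and injured Schwann cells, was near the minimum, at 0.496 and 0.810 FPKM with IL-22 and at 1.76 and 1.60 FPKM in controls. It met the minimum only through the controls, so it had to be lower with IL-22, and the test gave -0.70 ± 0.18 (limma adjusted p = 0.00792, and 0.0490 at most when 1 library was left out). Cryab, a small heat shock protein gene, was at 0.971 and 1.11 FPKM with IL-22 and at 1.05 and 1.29 FPKM in controls, with overlapping groups (interval from -0.47 to 0.30, limma adjusted p = 0.682). Nes, the filament gene of neural precursors, was at 0.803 and 0.646 FPKM with IL-22 and at 0.510 and 0.530 FPKM in controls and was not tested. Gap43, a growth-associated protein gene, and Fabp7, a fatty-acid-binding protein gene of precursors, were listed at 0 in all libraries.

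A further list of 35 genes of the Schwann lineage and of myelin, none of them among the 36, had 32 rows. Of these 18 were tested, 5 higher and 5 lower with IL-22, so that 55.6% passed against 58.4% of all rows. The counts were 2 higher and 3 lower without IL-22 library 1, 2 and 5 without IL-22 library 2, 3 and 4 without control library 1, and 4 and 3 without control library 2. The median difference was 0.01, and 5 genes were listed at 0 throughout. Egr2, the factor that directs myelin genes, was at 4.63 and 5.60 FPKM with IL-22 and at 0.440 and 0.480 FPKM in controls (2.06 ± 0.15, limma adjusted p = 7.95e-06). Dmd, the dystrophin gene, was at 2.39 and 2.39 FPKM with IL-22 and at 0.271 and 0.572 FPKM in controls (1.26 ± 0.18, limma adjusted p = 0.000304). These genes and Erbb3 met the minimum only through the IL-22 group, so they had to be higher in it. Erbb3, the receptor through which neuregulin sustains Schwann cells, was at 1.51 and 1.62 FPKM with IL-22 and at 0.819 and 0.685 FPKM in controls (0.55 ± 0.17, limma adjusted p = 0.0181, and 0.197 with quantile normalization, 0.0505 without IL-22 library 1 and 0.0835 without IL-22 library 2). Its partner Erbb2 was at 15.9 and 15.4 FPKM with IL-22 and at 15.1 and 15.3 FPKM in controls (interval from -0.15 to 0.23, limma adjusted p = 0.698). Id2 and Id4, inhibitors of differentiation, fell. Id2 was at 6.34 and 8.38 FPKM with IL-22 and at 45.9 and 48.7 FPKM in controls (-2.54 ± 0.12, limma adjusted p = 5.26e-07), and Id4 at 1.56 and 1.09 FPKM with IL-22 and at 4.06 and 5.41 FPKM in controls (-1.30 ± 0.17, limma adjusted p = 0.000214).

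**Figure D4:**
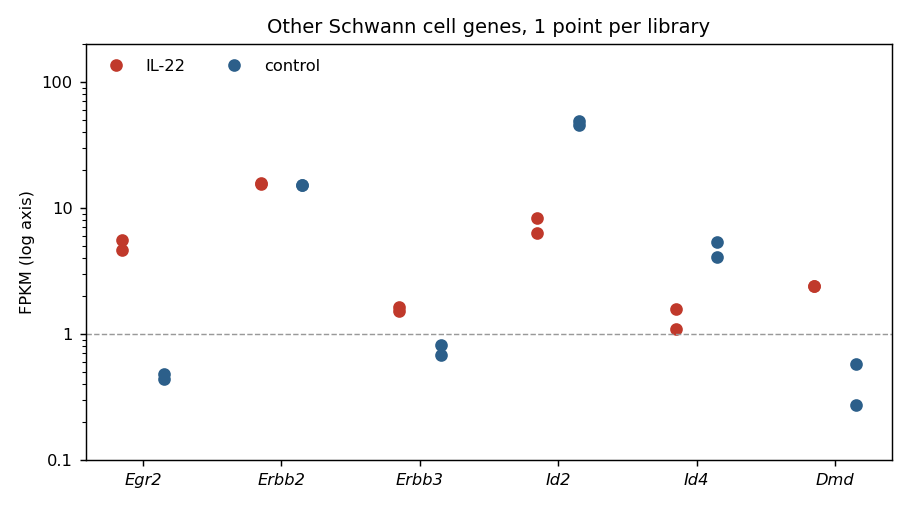
FPKM of 6 further Schwann cell genes on a log axis, with 1 point per library (red IL-22, blue control), where the dashed line marks 1 FPKM. Egr2 and Dmd were higher and Id2 and Id4 lower with IL-22. The groups overlapped in none of the 6 genes, Erbb2 included, which did not pass. Groups did not overlap in 80.1% of all rows tested. Egr2, Dmd and Erbb3 met the minimum of 1 FPKM only through the IL-22 group.

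The promoters of these genes were searched for short motifs, in RefSeq sequence of the build GRCr8, which differs from the build of the expression table. A window of 250 bases before to 50 bases after the gene start was found for 25 of the 36 genes. Only the first window listed for a gene was used, while shares of all windows count every window listed. Other starts of the same gene were not searched. Both strands were read, and no match overlapped another. The EGR motif GCGNGGGCG was found in 3 of the 25 windows, against 4.98% of all 33469 windows. These were the windows of Nab1, Pou3f2 and Vim. The STAT motif TTCNNNGAA was in 0 of the 25, against 8.87% of all windows. The SOX motif ACAAAG was in 3 of 25 (Mag, Cnp and Zeb2), against 18.8% of all, and ACAATG in 1 of 25 (Cadm4), against 13.2% of all. A match describes letters and is not a binding site, and a window without one says nothing about the rest of the gene. The windows of 3 genes, cut at the gene start, are printed in lower case with matches to these motifs in capitals: that of Cadm4, the largest rise, with 1 match to ACAATG on the reverse strand, that of Nab1, which had the most EGR matches, 3 of them printed and 1 just after the start, and that of Pmp22, the sheath gene with the largest rise, which had no match.
Cadm4, chr1:89202839-89203088 (GRCr8, plus strand): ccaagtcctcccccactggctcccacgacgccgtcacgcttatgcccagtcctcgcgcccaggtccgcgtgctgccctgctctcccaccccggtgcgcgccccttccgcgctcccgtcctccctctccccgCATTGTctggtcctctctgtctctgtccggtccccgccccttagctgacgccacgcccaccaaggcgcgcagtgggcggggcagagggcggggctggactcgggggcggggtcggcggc
Nab1, chr9:56545392-56545641 (GRCr8, plus strand): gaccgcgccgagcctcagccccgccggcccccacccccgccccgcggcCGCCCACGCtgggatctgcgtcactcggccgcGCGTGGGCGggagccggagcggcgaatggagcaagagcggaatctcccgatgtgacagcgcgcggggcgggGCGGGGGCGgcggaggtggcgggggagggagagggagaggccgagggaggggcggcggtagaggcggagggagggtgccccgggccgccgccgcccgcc
Pmp22, chr10:48294682-48294931 (GRCr8, plus strand): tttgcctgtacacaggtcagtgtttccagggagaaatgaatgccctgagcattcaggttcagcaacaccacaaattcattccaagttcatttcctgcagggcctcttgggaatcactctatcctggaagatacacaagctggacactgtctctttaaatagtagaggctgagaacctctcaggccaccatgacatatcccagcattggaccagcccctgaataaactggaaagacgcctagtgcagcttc
The letters also differ in composition. CG pairs numbered 27 in the Cadm4 sequence, 38 in that of Nab1 and 1 in that of Pmp22. Over the full windows, the ratio of observed to expected CG pairs had a median of 0.722 in the 13 tested genes with a window, 0.462 in the 12 that were not tested and 0.392 in all windows. This is a description of windows grouped by whether the gene was tested, and the groups were not compared by a test. The 12 include Gjc3, which had no row and so no measured level. Within the tested genes the ratio spanned 0.04 in Prx to 0.973 in Nab1.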

How the data were processed

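Per the labels' protocols, poly(A) RNA of RSC96 cells was read on an Illumina sequencer. The values used are FPKM as deposited, with 1 column per library. TopHat2, Cuffdiff and the build rn5 are named in the submitters' processing notes. For annotation, filters, scaling and strand, the choice is not given in the sources used here, so overlapping genes cannot be told apart. Since depth is known only in relative terms, there are no counting intervals. FPKM are not counts, and no count test was used.

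Each gene is the row of its symbol (suffix numbers removed, highest mean). Rows averaging 1 FPKM or more entered limma 3.58.1 (R 4.3.3) as log2(FPKM + 1), two-sided, with a trended eBayes and no covariates, which was also tested on simulated data. A difference on this scale understates the change of low genes. An exact permutation test of 2 libraries against 2 cannot go below 0.333. All 36 genes are accounted for. From the further list, Egr2, Erbb2 and Erbb3 are named, and genes past the threshold with a difference of at least 0.5; some genes that this rule takes are not reported here. The members and lists were chosen with earlier results of these data known. The lncRNA table was not used here. Motifs and figures were made with Python 3.11.15 and matplotlib 3.10.9.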

Additional observations from a re-analysis of the deposited data

How the results depend on the processing

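Call counts and the differences of single genes were recomputed under 15 alternatives, or 14 for genes under the higher minimum: pseudocounts of 0.1, 0.5 and 5, no filter or a minimum of 5 FPKM, median-of-ratios size factors, quantile normalization, robust eBayes, eBayes with no trend, a replicate block, symbols with several rows summed, and each library left out. Counts of called genes over all rows and among the 18 identity and myelin genes stayed within 1.5 times of those reported. Levels, shares, overlap counts and promoter values were not recomputed. Of the 18 tested identity and myelin genes 14 kept their direction and call under every alternative that could test them. The others were Nab2, which lost its call under 5 alternatives (no filter, no trend, and without IL-22 library 2 or either control library), Cnp, which gained one with quantile normalization, and Pax3 and Zeb2, which did not pass and changed sign. With 1 library left out, the difference of Pax3 ran from -0.054 to 0.236 and that of Zeb2 from -0.0653 to 0.132. With 1 library left out, 8 to 9 of the 18 were called higher and 5 lower. In the further list, recomputed by a choice made after seeing the data, 2 genes were higher and 3 lower at a minimum of 5 FPKM, where 11 were tested, and 2 to 4 were higher and 3 to 5 lower with 1 library left out. Of its 18 genes 9 kept direction and call. Erbb3 lost its call under 3 alternatives, Dag1 and Notch1 under 4, and Mpdz and Yap1 under 6, while Cntf and Wwtr1 gained one under 1 and Utrn under 2. Tead1, which did not pass, changed sign with quantile normalization (0.0109) and ran from -0.0757 to 0.0240 with 1 library left out. The cause was not tested. A lone library was taken to vary as much as the opposite group.

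Deviations of same-numbered libraries correlated at -0.002 across genes, and there are only 2 pairs, so the numbers are shared labels. With the replicate block 9 of the 18 genes were higher and 5 lower, and 2755 and 3070 of all rows. Genes under a mean of 1 FPKM were left out by choice of the minimum. Without it 12482 rows entered the fit, of which 2528 were higher and 2553 lower. Of the 36 genes 26 entered this fit, and 9 of them were higher and 5 lower. These 9 did not include Nab2 (limma adjusted p = 0.0696), so they were not the same 9 and held a gene under the minimum. With 2 libraries a group, no sample could be checked as an outlier.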
